A study of Mus musculus with 6 samples.

Results

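The endothelin system was represented by 5 genes of the 33696 in the count tables. They were Edn1 and Edn3, which encode the precursors of endothelin-1 and endothelin-3, Ece1, which encodes the endothelin-converting enzyme, and Ednra and Ednrb, which encode the ETA and ETB receptors. They were taken by gene symbol, and each symbol had 1 entry. Endothelins are short peptides that are cut out of a large precursor, first by furin-type proteases and then by the converting enzyme, and that act mostly on neighbouring cells. ETA on smooth muscle is known to cause contraction. ETB on endothelium is known to release nitric oxide and prostacyclin and to take up endothelin-1 from the circulation, and in the collecting duct, a well-known site of endothelin-1 synthesis, it is known to restrain sodium reabsorption.

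Single-cell RNA profiles of whole kidneys from 6 male C57BL/6 mice, 8 to 10 weeks old when obtained and so older when the kidneys were taken, were compared, 3 Sham and 3 DOCA-salt. DOCA-salt mice lost the left kidney, received a 50 mg pellet of deoxycorticosterone acetate, a mineralocorticoid, 7 days later, and then drank 1% NaCl for 21 days, a standard model of salt-sensitive hypertension with low renin. Sham mice had a sham operation and drank normal water, so the mineralocorticoid, the salt and the loss of a kidney cannot be told apart here. Each mouse gave 1 library of droplet-captured 3′ ends, counted as unique molecular identifiers (UMIs, 1 for each captured RNA molecule).

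The files held 76774 barcodes, of which 55630 were kept after limits on genes, UMIs, mitochondrial and hemoglobin reads and after removal of likely doublets, 7701 to 9933 a mouse with 65089019 to 103449536 UMIs. Median UMIs a cell ranged from 4787 to 9157 and the median mitochondrial share from 15.5% to 25.7%, and pairs of libraries had 14 to 36 barcode sequences in common among the kept cells. Cells were clustered without the endothelin genes and classes were named from marker genes. Podocytes, parietal epithelium and lymphatic endothelium formed no named class, and 503 Sham and 2333 DOCA-salt cells stayed unnamed, among them a cluster led by Slc39a1, Bgn and Col1a1 that was drawn mostly from a single DOCA-salt mouse. The kidneys differed in make-up. The proximal tubule was 64.3 ± 2.56% of cells in Sham and 52.6 ± 3.96% in DOCA-salt mice (SD, n = 3), fibroblasts 0.136 ± 0.0942% and 2.86 ± 0.429%, macrophages 1.49 ± 0.149% and 5.37 ± 0.787%, and endothelial cells 5.93 ± 0.595% and 7.65 ± 1.08%.

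In the GRCm39 build, Edn1 (ENSMUSG00000021367) lies at chr13:42446301-42461466 on the plus strand with 5 exons. Edn3 (ENSMUSG00000027524) lies at chr2:174602088-174625835 on the plus strand, also with 5 exons. Ece1 (ENSMUSG00000057530) covers chr4:137589530-137692542 on the plus strand with 20 exons. The receptor genes lie on minus strands, Ednra (ENSMUSG00000031616) at chr8:78386590-78451552 with 8 exons and Ednrb (ENSMUSG00000022122) at chr14:104052053-104081900 with 7. Edn1, Ednra and Ece1 overlap annotated antisense transcripts, and no antisense gene overlaps Edn3 or Ednrb.

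The windows from 250 bases before to 50 after each RefSeq transcript start were searched for 5 short motifs on both strands. Ece1 had 4 such windows and each other member 1, so shares of single windows do not compare directly with Ece1. Edn1 was the only member with the AP-1 motif, the binding site of Fos and Jun (TGACTCA or TGACTAA), which 7.38% of the 32851 windows hold. It also held GATAA, the core of the GATA site, as 25.4% of windows do. The stretch around the AP-1 match is shown because Edn1 had the largest called log2 change of the members within a cell class. Fos and Jun were also among the measured genes. The stretch is from RefSeq on GRCm38.p6, a build other than that of the counts, at chr13:42301495-42301524 on the plus strand. The match, in capitals, begins at base 37 after the 1 RefSeq start searched for Edn1. Its place relative to any other start was not examined.
Edn1: tgcacgttgcctgtgggTGACTAAtcacac
AGAACA, the half-site of the mineralocorticoid and glucocorticoid receptors, was found in the window of Ednrb, in 1 of the 4 windows of Ece1 and in 19.0% of all windows. CACGTG, an E-box of the clock factors, was found in 1 of the 4 windows of Ece1 and in 7.15% of all windows, and TATAA in none of the members' windows and in 24.9% of all. Motifs outside these windows were not sought, so a member may hold them at another start.

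The members came from different cells of the kidney. In Sham mice, 62.5% of all Edn1 UMIs came from endothelium, and 58.4% from its arterial class alone, whereas the tubule classes together gave 30.6%. Edn3 was found in the intercalated cells (52.2% of its UMIs), the acid and base transporting cells of the collecting duct, and in the thin limb (31.7%). Ednra came from smooth muscle cells and pericytes (86.9%), and Ednrb from endothelium (55.3%), smooth muscle cells and pericytes (14.8%), principal cells (10.7%) and connecting tubule (9.59%). Ece1 was spread over the proximal tubule (47.5%) and the endothelium (31.3%). In DOCA-salt mice the arterial class gave 31.2% of Edn1 and the capillary and venous class 11.8%, after 1.80% in Sham. Fibroblasts gave 58.2% of Ednra UMIs, after 1.67%, and connecting tubule 0.843% of Ednrb UMIs.

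**Figure D1:**
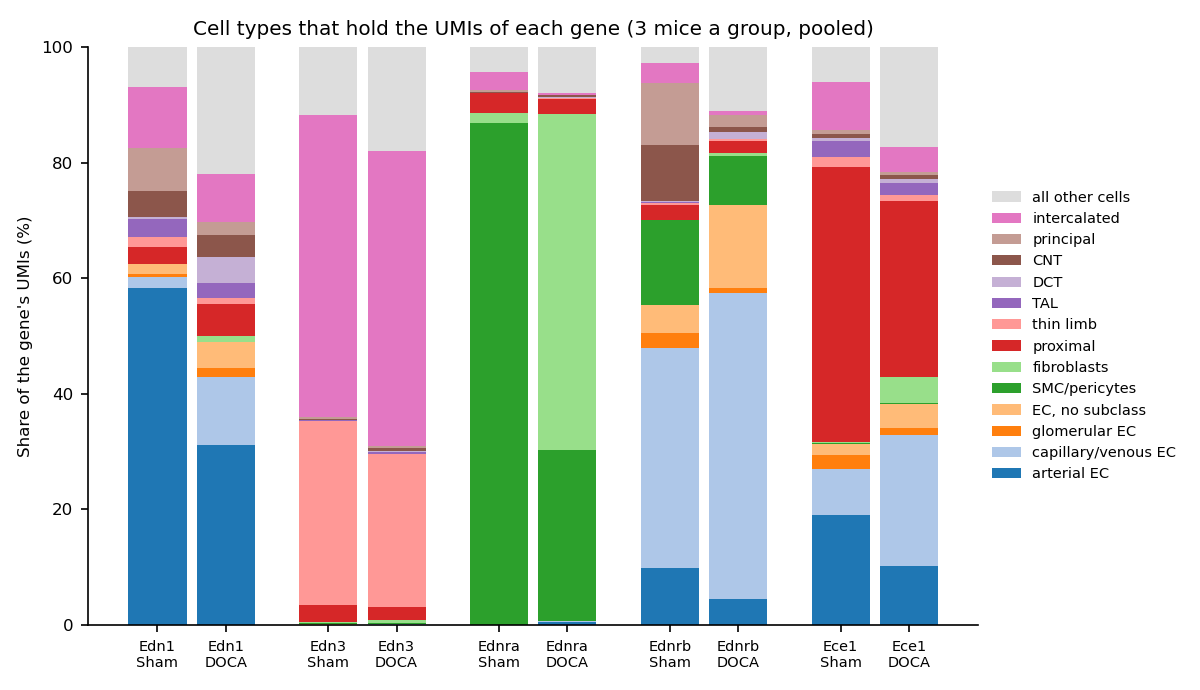
Stacked bars give the percentage of each gene's UMIs that came from each cell class, 1 bar for the 3 Sham and 1 for the 3 DOCA-salt mice, pooled. Arterial endothelium supplied 58.4% of Edn1 UMIs in Sham and 31.2% in DOCA-salt mice, and fibroblasts 1.67% and 58.2% of Ednra UMIs.

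Summed over all cells of a kidney, both receptors rose and neither ligand nor the enzyme passed the test. Of the 5 members, 2 were called by edgeR's quasi-likelihood test (Benjamini-Hochberg adjusted p below 0.05), where 17.1% of the 19673 genes tested were called. Levels are given in CPM, the UMIs of a gene per 1000000 UMIs of the summed cells. Ednra was 1.99, 2.25 and 2.26 CPM in Sham and 3.73, 4.93 and 5.65 in DOCA-salt mice. Ednrb was 8.14, 9.12 and 9.14 in Sham and 12.3, 13.9 and 14.03 in DOCA-salt mice. For both, every DOCA-salt kidney was above every Sham kidney, with log2 changes of 1.02 ± 0.18 (SE, adjusted p = 0.00698) for Ednra and 0.49 ± 0.11 (adjusted p = 0.0191) for Ednrb. Separation of 3 against 3 mice by itself gives an exact two-sided permutation p of 0.1. The share of all genes that separate in this way is not given here. The call of Ednrb was lost without Sham 1 (adjusted p = 0.081), without DOCA-salt 2 (0.0688) and without DOCA-salt 3 (0.0823). In such sums, more cells of a type and more RNA in each cell cannot be told apart.

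Edn1 over all cells was 12.2, 11.7 and 15.2 CPM in Sham and 15.7, 15.9 and 16.3 in DOCA-salt mice (log2 change 0.17 ± 0.13, adjusted p = 0.401). Edn3 was 7.68, 4.67 and 6.30 against 5.02, 6.83 and 5.60 (−0.22 ± 0.20, adjusted p = 0.511). Ece1 was 31.3, 53.8 and 33.9 against 51.0, 46.1 and 61.4 (0.30 ± 0.20, adjusted p = 0.348). The groups overlapped for Edn3 and Ece1, and for Edn1 the highest Sham kidney lay just under the lowest DOCA-salt kidney. Edn2, which encodes a further ligand, gave 14 UMIs in all Sham and 17 in all DOCA-salt cells.

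The whole-kidney receptor values depended on which cells were summed. Without fibroblasts, Ednra was 1.96, 2.23 and 2.21 CPM in Sham and 1.85, 2.14 and 2.15 in DOCA-salt mice, and the log2 change was −0.15 (adjusted p = 0.564). Without endothelial cells, Ednrb was 3.82, 3.64 and 4.89 against 3.39, 4.32 and 3.96, with a log2 change of −0.21 (adjusted p = 0.460). In both cases the groups overlapped. Edn1 moved the other way: outside the endothelium it was 4.67, 4.35 and 6.41 in Sham and 7.96, 9.34 and 8.66 in DOCA-salt mice, and it passed the test (log2 change 0.63, adjusted p = 0.0461). Split over 22 classes, the pooled difference of Ednrb over the whole kidney, 4.64 CPM, was made of 7.17 from the UMI shares of the classes and −2.53 from the levels within them, and that of Edn1, 3.00 CPM, of −0.0277 and 3.03. Each part from shares is a net over the classes, in which opposite moves can cancel. Unnamed cells, 503 in Sham and 2333 in DOCA-salt mice, gave 88 and 583 of the Edn1 UMIs. Their part in the rise outside the endothelium was not tested.

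**Figure D2:**
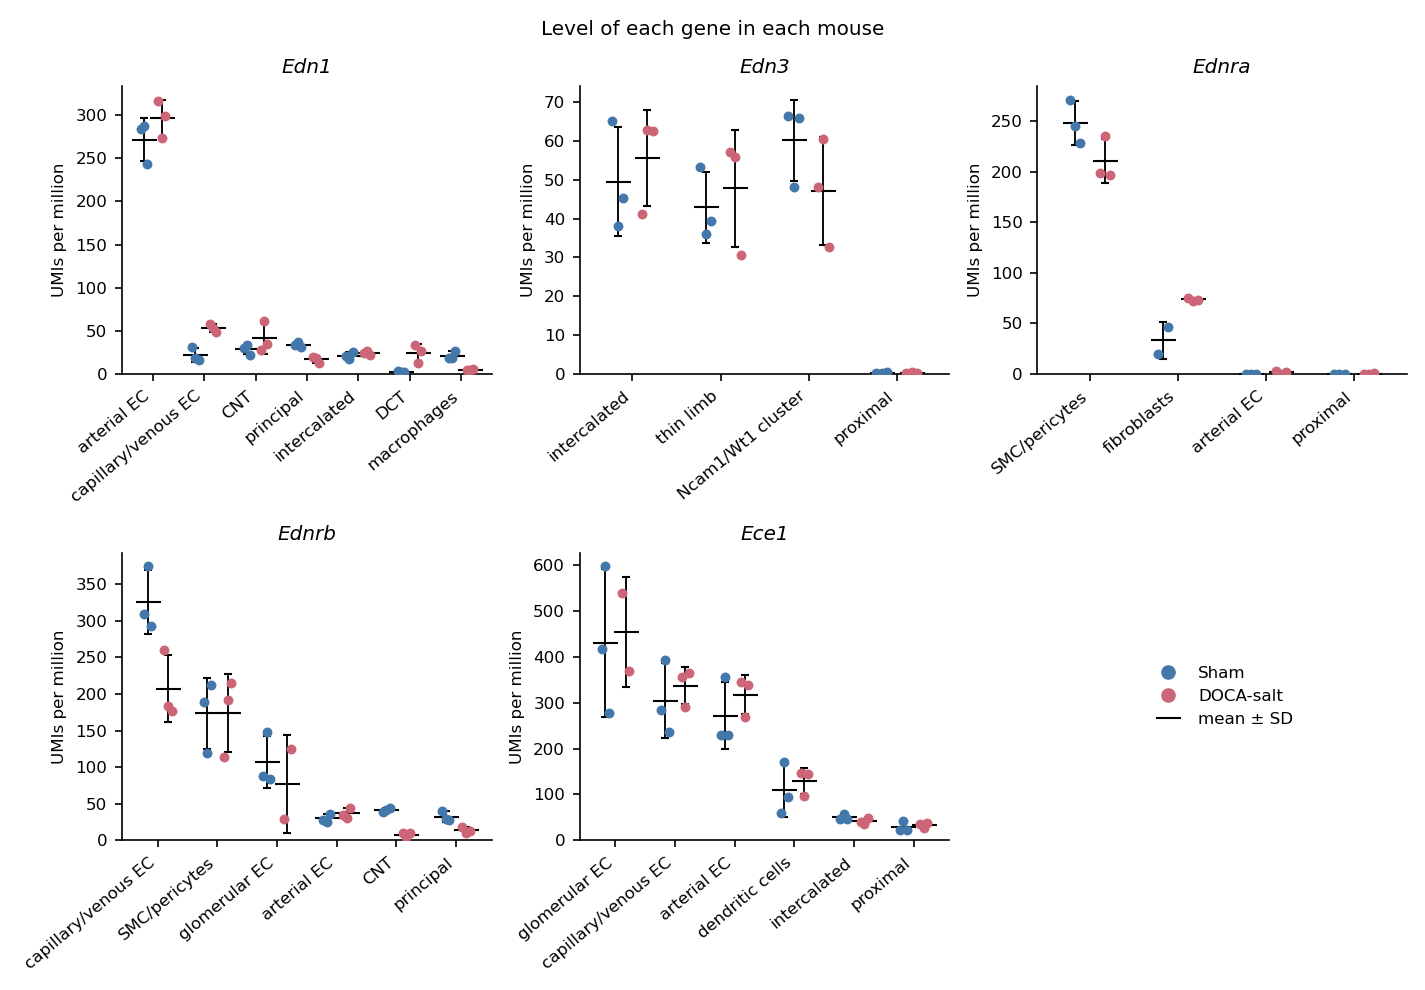
Each panel gives 1 gene in CPM by cell class, with a point for each mouse and bars for the mean ± SD of 3 Sham and 3 DOCA-salt mice (fewer where a mouse had under 10 cells). Arterial endothelium led for Edn1 in both groups, and the principal cells and connecting tubule lay lower for Ednrb in DOCA-salt mice.

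Edn1 was highest in arterial endothelium, at 272 ± 25.0 CPM in Sham mice, with no overlap with any other class. Glomerular endothelium (34.4), principal cells (33.5), cycling cells (29.4), connecting tubule (28.3), capillary and venous endothelium (22.0), macrophages (21.0) and intercalated cells (20.9) followed, each overlapping its neighbour. In DOCA-salt mice the order was arterial (296), glomerular (158) and capillary and venous endothelium (53.5), the last of which overlapped the urothelium (47.7) and connecting tubule (41.3). The proximal tubule, where Edn1 was low, held 0.631, 0.181 and 0.950 CPM in Sham and 1.20, 2.09 and 2.27 in DOCA-salt mice.

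Within the endothelium, Edn1 fell in the class as a whole and rose in 2 of its subclasses. Of the 2 rises, that in capillary and venous cells held under every alternative that tested it, and that in glomerular cells did not. Over all endothelial cells Edn1 was 193, 183 and 179 CPM in Sham and 156, 111 and 112 in DOCA-salt mice, so that every DOCA-salt value was below the Sham values. The log2 change was −0.56 ± 0.14 (adjusted p = 0.0314), and 1 of the 3 members tested was called, where 9.16% of genes were. The call was lost without Sham 1 (adjusted p = 0.105), Sham 3 (0.117), DOCA-salt 2 (0.156) or DOCA-salt 3 (0.179).

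In capillary and venous endothelium, the peritubular and venous vessels of the kidney, Edn1 was 31.4, 18.1 and 16.6 CPM in Sham and 58.2, 53.6 and 48.7 in DOCA-salt mice, with no overlap. It rose by 1.20 ± 0.23 on the log2 scale (adjusted p = 0.00437), from 52 UMIs in 678 cells to 500 UMIs in 1199 cells. Ednrb also changed there, so that 2 of 3 members were called, against 8.59% of genes. The rise of Edn1 kept its call without any 1 mouse.

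In glomerular endothelium Edn1 was 18.9, 46.7 and 37.5 CPM in Sham and 98.2 and 218 in 2 DOCA-salt mice, the third having under 10 such cells. It rose by 2.25 ± 0.44 (adjusted p = 0.0391), 1 of 3 members called where 0.0843% of genes were, but the values rest on 17 UMIs in 81 Sham cells and on 10 UMIs in 14 and 49 UMIs in 22 cells of the 2 DOCA-salt mice. The call was lost without Sham 1 (adjusted p = 0.563), without DOCA-salt 2 (0.915), in DESeq2 (0.483) and at clustering resolution 2 (0.115).

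In arterial endothelium Edn1 was 284, 288 and 243 CPM in Sham and 317, 273 and 299 in DOCA-salt mice, which overlapped (log2 change 0.12 ± 0.14, adjusted p = 0.857). None of the 3 members tested was called there by edgeR or DESeq2, or had an unadjusted p under 0.05, and only 0.126% of genes were called. The change of Edn1 in capillary and venous endothelium exceeded that in arterial endothelium by 1.10 ± 0.23 on the log2 scale (adjusted p = 0.00394, edgeR interaction term with the mouse as a block). That term called 2 of 3 members and 2.99% of genes, and its call of Edn1 was lost without Sham 2 (adjusted p = 0.0621). The pair of classes was chosen after their values were seen.

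The make-up of the endothelium moved with these values. Arterial cells were 38.0 ± 3.32% of endothelial cells in Sham and 16.7 ± 5.51% in DOCA-salt mice, capillary and venous cells 42.2 ± 7.85% and 55.5 ± 0.224%, and glomerular cells 5.00 ± 1.18% and 2.12 ± 0.875%. The pooled endothelial level of Edn1 was 60.9 CPM lower in DOCA-salt mice. Of this difference, −91.0 came from the shares of the 4 endothelial classes at their mean levels and 30.0 from the levels within the classes at their mean shares. The classes were the 3 named ones and the cells with no subclass. Their shares in this split were of endothelial UMIs, not of cells. The part within classes also takes in any change of clusters inside a class.

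**Figure D3:**
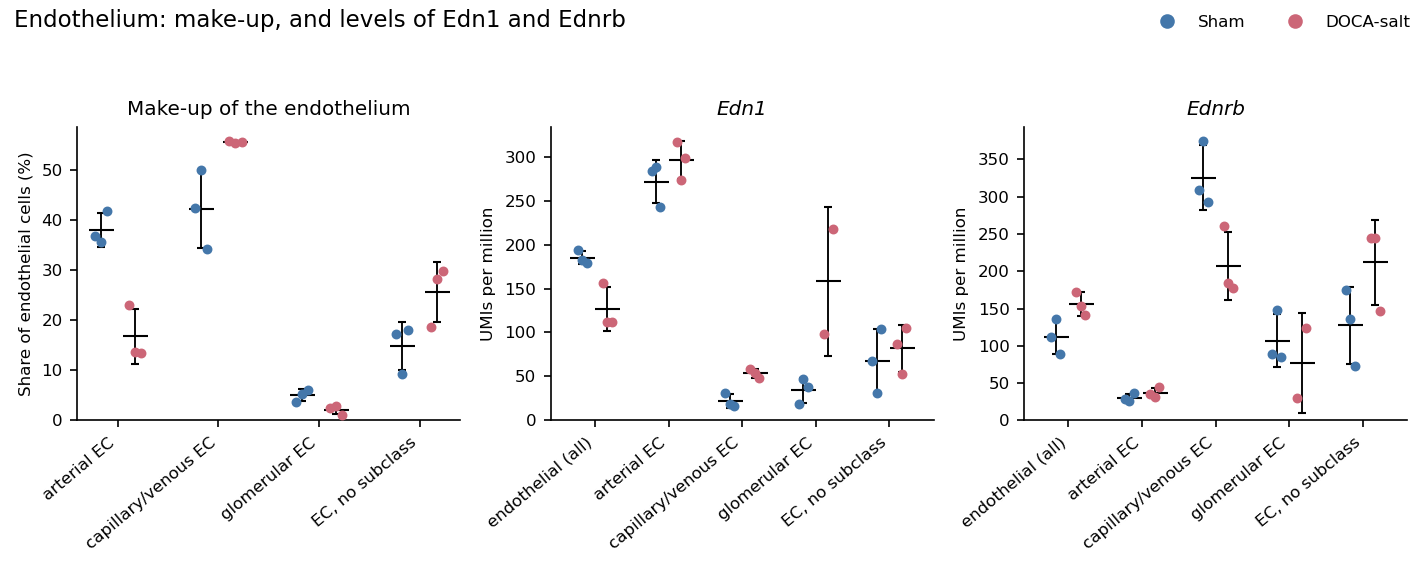
Left, the percentage of endothelial cells in each subclass; middle and right, Edn1 and Ednrb in CPM in each subclass, with a point for each mouse and the mean ± SD (3 Sham and 3 DOCA-salt mice, glomerular DOCA-salt 2). Arterial cells were a smaller share in DOCA-salt mice, and Edn1 was higher and Ednrb lower in capillary and venous cells.

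The capillary and venous class was not the same set of clusters in both groups. The cluster led by S100g, which is also a connecting tubule marker, Npr3 and Ntf3 held 390 Sham and 60 DOCA-salt cells, and the one led by Aplnr, Nav3 and Apln, of which the last is known as an angiogenic peptide, held 26 and 608. In the Aplnr cluster Edn1 was 46.0, 36.3 and 41.6 CPM in DOCA-salt mice, and only Sham 2 had 10 cells there, with 0 UMIs. The cluster led by Npr3, Cyp26b1, which is also on the list of glomerular endothelium markers, and Tll1 held 223 and 201 cells, 200 of the former from Sham 2. In it Edn1 was 0 and 12.5 in Sham 1 and 2 and 27.4, 27.9 and 41.5 in DOCA-salt mice, too few UMIs for the test. Edn1 was higher still in the cluster led by Igfbp5 and Igfbp3 (33 and 215 cells), at 114 and 97.0 in Sham and 140, 131 and 54.9 in DOCA-salt mice, which overlapped. The summed arterial markers in the capillary and venous class were 401 to 680 CPM in Sham and 652 to 769 in DOCA-salt mice, 7 of 8 with the higher mean in DOCA-salt mice, and proximal tubule markers 849 to 1844 and 432 to 604. Median UMIs a cell were 2964 and 6163. The part of these in the Edn1 values was not tested.

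Along the distal nephron, Edn1 rose in the distal convoluted tubule, where sodium is reabsorbed through Slc12a3, and fell in principal cells. In the distal convoluted tubule it was 3.21, 2.28 and 1.86 CPM in Sham and 33.4, 12.7 and 26.2 in DOCA-salt mice, from 9 UMIs in 673 cells and 190 in 890. The groups were far apart, and the log2 change was 3.11 ± 0.48 (adjusted p = 0.000462). Of the 2 members tested there, 1 was called, where 7.24% of genes were, and no single mouse decided the call. Of its 2 clusters, the one led by Slc12a3, Abca13 and Trpm6 held 8 of the Sham and all of the DOCA-salt Edn1 UMIs, at 2.65, 2.44 and 2.13 against 35.5, 13.7 and 28.1 CPM (log2 change 3.23 ± 0.48, adjusted p = 0.000207). The other, led by Pvalb and Calb1, held 1 Edn1 UMI in 127 Sham and 0 in 155 DOCA-salt cells.

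In principal cells, the water and sodium channel bearing cells of the collecting duct, Edn1 was 33.0, 36.6 and 30.8 CPM in Sham and 19.99, 18.8 and 12.2 in DOCA-salt mice, again without overlap. It fell by 0.93 ± 0.22 on the log2 scale (adjusted p = 0.0198). With Ednrb, 2 of the 3 members tested were called, against 7.75% of genes. The call of Edn1 was lost without Sham 1 (adjusted p = 0.0558), Sham 3 (0.0506) or DOCA-salt 3 (0.0976), and without doublet removal (0.103).

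The change of Edn1 in the distal convoluted tubule exceeded that in principal cells by 3.98 ± 0.46 on the log2 scale (adjusted p = 1.54e-07, edgeR interaction term), a pair also chosen after their values were seen, for which 2 of 3 members and 8.74% of genes were called. In connecting tubule Edn1 was 29.5, 33.2 and 22.1 in Sham and 28.1, 61.5 and 34.4 CPM in DOCA-salt mice (0.38 ± 0.29, adjusted p = 0.386). In intercalated cells it was 20.1, 17.3 and 25.3 against 23.7, 26.8 and 21.8 (0.23 ± 0.18, adjusted p = 0.510). The groups overlapped in both. In the thick ascending limb the log2 change was 0.16 ± 0.28 (adjusted p = 0.885) and in the thin limb 0.28 ± 0.43 (adjusted p = 0.881). No member was called in these last classes by edgeR or DESeq2, of 2 and 3 tested, and none had an unadjusted p under 0.05, where 1.35% and 0.724% of genes were called.

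**Figure D4:**
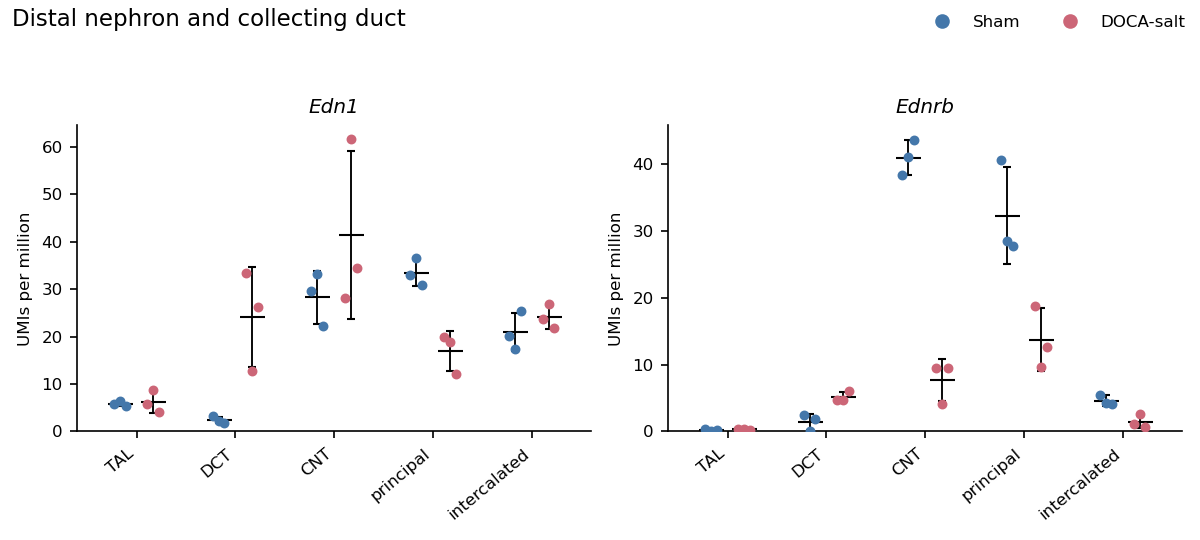
Edn1 (left) and Ednrb (right) in CPM in the thick ascending limb, distal convoluted tubule, connecting tubule, principal cells and intercalated cells, with a point for each mouse and the mean ± SD of 3 Sham and 3 DOCA-salt mice. Edn1 was 2.45 in Sham and 24.1 in DOCA-salt distal convoluted tubule, and Ednrb 41.0 and 7.74 in connecting tubule.

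Other values moved with those of the distal convoluted tubule. A list of 17 immediate-early and heat shock genes that respond to enzymatic dissociation summed to 3364 to 4104 CPM in Sham and 5366 to 8038 in DOCA-salt mice, with 9 genes called higher and 2 lower by edgeR. Its own markers summed to 9565 to 11578 and 7272 to 7851, the endothelial markers to 18.3 to 28.5 and 36.4 to 58.5, and median UMIs a cell were 4450 and 8993.5. In principal cells the dissociation list was 9555 to 12332 and 11203 to 13014, with 2 genes called higher and 0 lower. Their part in the Edn1 values was not tested.

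The share of cells with an Edn1 UMI moved the same way when each cell was thinned to 1000 UMIs. In the distal convoluted tubule it was 0.274 ± 0.245% in Sham and 1.54 ± 0.587% in DOCA-salt mice (exact two-sided permutation p = 0.1), after 1.26% and 10.6% unthinned. In principal cells it was 2.94% and 1.61%, and in capillary and venous endothelium 1.86% and 4.62%, also with p = 0.1, the smallest that 3 against 3 mice allow in this exact permutation test. In arterial endothelium it was 19.6% and 19.5% (exact permutation p = 0.9). The proximal tubule, the class of reference for free RNA, gave 0.0626% and 0.162% (exact permutation p = 0.1), the DOCA-salt mice lying above the Sham mice. Thinning left out 74 Sham and 81 DOCA-salt cells of the distal convoluted tubule.

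In macrophages Edn1 fell. It was 18.2, 17.97 and 26.9 CPM in Sham and 3.98, 4.56 and 5.39 in DOCA-salt mice, with no overlap and a log2 change of −2.24 ± 0.35 (adjusted p = 0.00144). Of 2 members tested 1 was called, where 4.95% of genes were. The counts were 35 UMIs in 406 cells and 41 in 1518. Most Sham macrophages belonged to the cluster led by Mmp13, Ifnb1 and Ccl4 (351 Sham and 321 DOCA-salt cells), in which Edn1 was 19.3, 21.5 and 29.8 against 11.9, 6.17 and 9.08, from 34 and 15 UMIs, too few for the test. Endothelial markers in macrophages summed to 22.0 to 73.1 CPM in Sham and 65.9 to 73.0 in DOCA-salt mice, the latter range lying within the former. In fibroblasts Edn1 was listed at 0 in both Sham mice with 10 cells and gave 48 UMIs in DOCA-salt mice, at 5.56, 4.37 and 4.84 CPM. Its test there missed the threshold (adjusted p = 0.440), and no fold is given against Sham mice at 0.

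In the proximal tubule none of the 4 members tested was called by edgeR, where 6.00% of genes were; 2 had an unadjusted p under 0.05, and DESeq2 called 1. Edn1 there had a log2 change of 1.59 ± 0.46 (adjusted p = 0.0774) and Ednrb of 0.75 ± 0.29 (adjusted p = 0.159), both at levels under 3 CPM in every mouse. In the proximal tubule cluster led by Osgin1, Lonrf3 and Pdk4, Edn1 was 0.339, 0.201 and 0.458 in Sham and 1.91, 3.42 and 5.27 in DOCA-salt mice.

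Edn3 had a narrow pattern, and in the 4 comparisons of the groups that tested it none of its log2 changes, from −0.22 to 0.20, was called by edgeR or had an unadjusted p under 0.05. In Sham mice it was highest in the unnamed cluster led by Ncam1, Wt1 and Akap12 (60.2 CPM), in intercalated cells (49.5 ± 14.1) and in the thin limb (42.9 ± 9.20), which overlapped each other and stood clear of the next class. That class was fibroblasts, whose mean of 13.2 rests on 2 Sham mice, at 0 and 26.4, and 4 UMIs. In DOCA-salt mice the Ncam1 cluster, intercalated cells and thin limb were at 47.1, 55.6 ± 12.4 and 47.9 ± 15.1. By mouse, intercalated cells had 65.3, 38.1 and 45.2 CPM in Sham and 41.2, 62.8 and 62.7 in DOCA-salt mice, and the groups overlapped (log2 change 0.18 ± 0.21, adjusted p = 0.687). The thin limb had 53.4, 36.0 and 39.4 against 57.3, 55.8 and 30.5 (0.20 ± 0.23, adjusted p = 0.823).

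Within the intercalated cells, Edn3 lay highest in the cluster led by Aqp6, Slc4a1 and Kit, genes of the acid-secreting type, at 121, 83.9 and 81.9 CPM in Sham and 56.3, 78.4 and 91.1 in DOCA-salt mice. In the cluster led by Slc26a4, Hmx2 and Slc4a9, genes of the base-secreting type, it was 48.3, 28.1 and 34.5 against 34.6, 49.1 and 42.4. In both the groups overlapped. Among the thin limb clusters, the one led by Sorcs3, Bst1 and Aqp1 had 20.7, 11.5 and 10.9 in Sham and 47.2, 82.9 and 29.4 in DOCA-salt mice, with no overlap, whereas the one led by Slc14a2 and Corin had 97.0, 75.2 and 79.7 against 112, 63.6 and 38.9. These clusters were not tested one by one. After thinning to 1000 UMIs, 5.06% of Sham and 5.31% of DOCA-salt intercalated cells held an Edn3 UMI (exact permutation p = 1), against 0.0337% and 0.0396% in the proximal tubule.

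Ece1, the enzyme that releases the active peptide, was highest in the endothelium. In Sham mice glomerular (431 CPM), capillary and venous (305) and arterial cells (272) overlapped one after another and stood above dendritic cells (109). In DOCA-salt mice they were at 455, 337, 318 and 129. Over all endothelial cells Ece1 was 247, 382 and 227 in Sham and 340, 276 and 347 in DOCA-salt mice, which overlapped (log2 change 0.16 ± 0.18, adjusted p = 0.652). In the proximal tubule it was 21.9, 43.1 and 23.4 against 36.0, 27.3 and 36.9 (0.11 ± 0.25, adjusted p = 0.828). Sham 2 was the highest Sham mouse in both classes, as in all cells together, and without Sham 2 Ece1 was called higher over the whole kidney (log2 change 0.56, adjusted p = 0.0184), in endothelial cells (0.45, adjusted p = 0.0346) and in the proximal tubule (0.50, adjusted p = 0.0400). With all mice, Ece1 passed the test in none of the 15 comparisons of DOCA-salt with Sham mice by edgeR, with no unadjusted p under 0.05, and its log2 changes ranged from −0.27 in smooth muscle cells and pericytes to 0.73 in fibroblasts.

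Ednra, the contractile receptor, was found mostly in mural cells and fibroblasts. In smooth muscle cells and pericytes it was 271, 245 and 229 CPM in Sham and 199, 235 and 197 in DOCA-salt mice, and the groups overlapped (log2 change −0.28 ± 0.17, adjusted p = 0.509). None of the 3 members tested there was called by edgeR or DESeq2, or had an unadjusted p under 0.05, and 2.58% of genes were called. In fibroblasts Ednra was 19.8 and 46.2 in the Sham mice with 10 cells and 75.2, 72.0 and 73.4 in DOCA-salt mice, from 3 UMIs in each of these Sham mice and 731 in DOCA-salt mice. The Sham values lay below the DOCA-salt values, but the log2 change of 1.40 ± 0.51 missed the threshold (adjusted p = 0.0923). There 0 of 3 members were called by edgeR or DESeq2 and 1 had an unadjusted p under 0.05, where 8.77% of genes were called.

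Fibroblasts were 39 of the Sham and 809 of the DOCA-salt cells. Split by cell class, the pooled whole-kidney difference of 2.57 CPM in Ednra was made of 1.93 from the UMI shares of the 22 classes and 0.64 from the levels within them. In the thinned cells, 21.8% of Sham and 19.1% of DOCA-salt smooth muscle cells and pericytes held an Ednra UMI (exact permutation p = 0.3). In fibroblasts, with 2 Sham and 3 DOCA-salt mice, 3.47% and 7.004% did (exact permutation p = 0.2, the smallest that 2 against 3 mice allow). The proximal tubule gave 0.0147% and 0.0346%. Smooth muscle markers in fibroblasts summed to 310 to 2401 CPM in Sham and 2278 to 3458 in DOCA-salt mice, and their part in the fibroblast values was not tested.

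Ednrb fell in 4 of the cell classes tested while its whole-kidney sum rose. In Sham mice it was highest in capillary and venous endothelium (326 ± 43.4 CPM), then in smooth muscle cells and pericytes (174 ± 48.8) and glomerular endothelium (107), which overlapped, then in connecting tubule (41.0 ± 2.65), principal cells (32.3 ± 7.22) and arterial endothelium (30.2 ± 5.81), also overlapping. In DOCA-salt mice the capillary and venous level was 207 ± 46.1 and overlapped that of smooth muscle cells and pericytes (174 ± 53.1), and connecting tubule stood at 7.74 ± 3.11.

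The largest change of Ednrb was in connecting tubule, the segment between the distal convoluted tubule and the collecting duct. It was 38.3, 41.1 and 43.6 CPM in Sham and 9.58, 4.15 and 9.49 in DOCA-salt mice, from 187 UMIs in 528 cells and 30 in 283. The groups were far apart, and it fell by 2.62 ± 0.28 on the log2 scale (adjusted p = 1.48e-05). Of 3 members tested 1 was called, in a class where 24.9% of genes were. The call held without any 1 mouse.

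In principal cells Ednrb was 40.7, 28.5 and 27.8 CPM in Sham and 18.8, 9.64 and 12.7 in DOCA-salt mice, without overlap, and fell by 1.19 ± 0.26 (adjusted p = 0.0143). That call was lost without Sham 1 (adjusted p = 0.0681), DOCA-salt 2 (0.0527) or DOCA-salt 3 (0.0676). In intercalated cells Ednrb was 5.51, 4.20 and 4.15 against 1.10, 2.55 and 0.674 and fell by 1.65 ± 0.41 (adjusted p = 0.0415), from 68 and 21 UMIs. Of 4 members tested there 1 was called, where 6.05% of genes were, and the call was lost without Sham 1 (adjusted p = 0.147), Sham 3 (0.109), DOCA-salt 1 (0.143) or DOCA-salt 3 (0.176) and at clustering resolution 2 (0.105), and at a limit of 20% mitochondrial UMIs Ednrb was too low to be tested. Of these UMIs, 65 in Sham and 17 in DOCA-salt mice came from the cluster led by Egfem1, S100g and Slc26a4, which carries markers of both intercalated cells and connecting tubule.

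In the distal convoluted tubule, Ednrb was 2.41, 0 and 1.86 CPM in Sham and 4.77, 4.73 and 6.07 in DOCA-salt mice, from 6 and 42 UMIs, and did not pass the filter on low counts for the test of that class alone. The interaction term gave a change 2.71 ± 0.58 above that in principal cells on the log2 scale (adjusted p = 0.00178). Endothelial markers moved with Ednrb there, their sum being 18.3 to 28.5 CPM in Sham and 36.4 to 58.5 in DOCA-salt mice, and the part of endothelial RNA in the Ednrb values was not tested.

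Marker sums moved with the tubular values of Ednrb. In connecting tubule its own markers summed to 42596 to 57020 CPM in Sham and 26321 to 32045 in DOCA-salt mice. S100g (mean 25078 and 11101) and Klk1 (15383 and 3086) made up most of the Sham sum and lay lower in DOCA-salt mice. Slc8a1, at 6994 and 12870, lay higher and was the largest part of the DOCA-salt sum. There the principal cell markers summed to 5942 to 7849 and 1901 to 2111. In principal cells their own markers were 20024 to 21836 and 17046 to 19925. In intercalated cells the connecting tubule markers were 3988 to 6857 and 3351 to 4216. The dissociation list was 5038 to 6548 in Sham and 5197 to 6186 in DOCA-salt connecting tubule, with 3 of 17 genes called higher and 7 lower by edgeR, and 5912 to 7795 and 4749 to 5244 in intercalated cells, with 0 higher and 5 lower. The part of these in the Ednrb values was not tested. In the thinned cells, 3.79% of Sham and 0.773% of DOCA-salt connecting tubule cells held an Ednrb UMI, 3.30% and 1.42% of principal cells, and 0.308% and 0.127% of intercalated cells, each with an exact permutation p of 0.1, the smallest possible, against 0.0477% and 0.0677% of proximal tubule cells.

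In the endothelium Ednrb, whose product is known to clear endothelin-1, lay on the other side of the Sham values from Edn1, in the whole class and in capillary and venous cells. Over all endothelial cells it was 112, 136 and 88.8 CPM in Sham and 172, 154 and 141 in DOCA-salt mice. All DOCA-salt values were above those of Sham mice, but the log2 change of 0.47 ± 0.15 missed the threshold (adjusted p = 0.0733). In capillary and venous endothelium it was 309, 375 and 293 against 260, 184 and 177 and fell by 0.69 ± 0.17 (adjusted p = 0.0192). The call was lost without Sham 1 (adjusted p = 0.0602), DOCA-salt 2 (0.0754) or DOCA-salt 3 (0.0983), and without doublet removal (0.0614). In arterial endothelium it was 28.5, 25.4 and 36.7 against 35.1, 31.0 and 44.6, which overlapped (0.25 ± 0.22, adjusted p = 0.787), and in glomerular endothelium the log2 change was −0.26 ± 0.43 (adjusted p = 0.969).

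The change of Ednrb in capillary and venous endothelium lay 0.92 ± 0.22 below that in arterial endothelium on the log2 scale (interaction −0.92, adjusted p = 0.0149), a call lost without Sham 1 (adjusted p = 0.0544), Sham 2 (0.106), DOCA-salt 2 (0.0507) or DOCA-salt 3 (0.114). Of the pooled endothelial difference of 44.3 CPM, 84.6 came from the UMI shares of the endothelial classes and −40.4 from the levels within them. In the capillary cluster led by Npr3, Cyp26b1 and Tll1, whose Sham cells were mostly from Sham 2, Ednrb was 322 and 389 in Sham 1 and 2 and 235, 112 and 91.9 in DOCA-salt mice, and the log2 change of −1.26 ± 0.36 missed the threshold (adjusted p = 0.218). In the thinned cells 24.3% of Sham and 15.9% of DOCA-salt capillary and venous cells held an Ednrb UMI (exact permutation p = 0.1), whereas unthinned, with fewer UMIs a cell in Sham mice, the shares ran the other way, 49.4% and 54.1% (exact permutation p = 0.2). In smooth muscle cells and pericytes Ednrb was 189, 119 and 213 against 114, 192 and 215, with a log2 change of −0.06 ± 0.24 (adjusted p = 0.951).

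**Figure D5:**
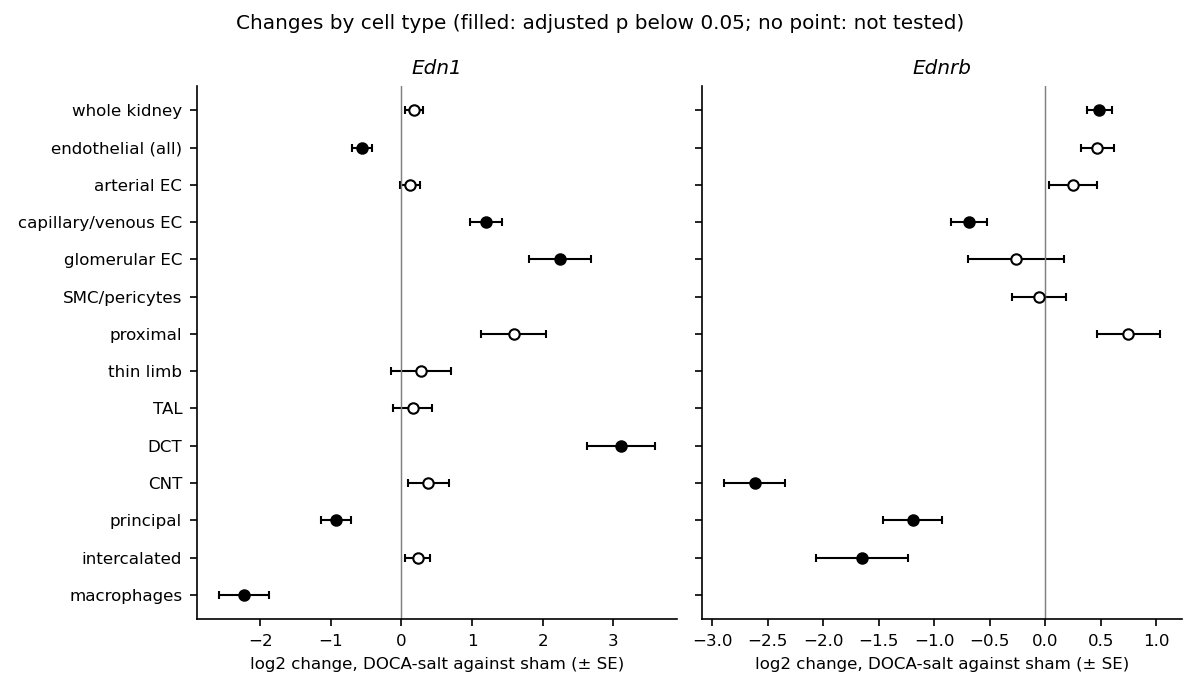
Log2 change ± SE of Edn1 and Ednrb, DOCA-salt against Sham mice, in each comparison but that of fibroblasts (edgeR), where Sham Edn1 was at 0 and Ednrb was not tested, with filled points for an adjusted p below 0.05, open points otherwise and no point where the gene was not tested. In the comparisons drawn, Edn1 ranged from −2.24 in macrophages to 3.11 in the distal convoluted tubule, and Ednrb from −2.62 in connecting tubule to 0.75 in the proximal tubule.

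Endothelial and tubular cells, the latter pooled over 7 classes, were compared in 1 model with the mouse as a block. The change of Edn1 in endothelium lay 1.04 ± 0.16 below that in tubule on the log2 scale (interaction −1.04, adjusted p = 5.05e-04), and that of Ednrb 1.47 ± 0.18 above it (adjusted p = 4.86e-05). Of the 5 members 2 were called, where 8.60% of the 17917 genes tested were. Edn1 in the pooled tubule was 4.22, 4.07 and 5.16 CPM in Sham and 5.91, 7.02 and 6.39 in DOCA-salt mice, and Ednrb 2.41, 2.79 and 2.89 against 1.39, 1.27 and 1.60. So in the pooled tubule Edn1 lay higher and Ednrb lower in every DOCA-salt mouse, the reverse of the whole endothelial sum. The make-up of both sums differed between the groups: connecting tubule was 1.95 ± 0.516% of all cells in Sham and 1.01 ± 0.237% in DOCA-salt mice and principal cells 2.56 ± 0.385% and 1.57 ± 0.295%, and in the endothelium the class shares took Edn1 down and the levels within classes took it up, as given above. The part of the tubular make-up in these values was not tested. For Ece1 the difference was 0.10 ± 0.10 (adjusted p = 0.628).

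Other genes of the pathway were counted in lists. Of 7 genes of endothelin supply and removal, 5 were tested over the whole kidney and 2 rose, Ece2, a second converting enzyme (log2 change 2.25, adjusted p = 0.0233), and Kel, a related endothelin-cleaving protease (1.33, adjusted p = 0.0157). Over all genes tested there 17.1% were called, and the list's median was 0.22 where that of all genes was −0.02. Ece2 gave 10 UMIs in Sham and 61 in DOCA-salt mice, and 10 and 9 outside the fibroblasts. In endothelial cells 3 of the list were tested, and the lowest adjusted p was 0.293, of Furin.

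Of 29 genes of receptor signalling, 8 rose and 0 fell over the whole kidney, with a median log2 change of 0.27. Of the 19673 genes tested there 17.1% were called, 2271 higher and 1097 lower. The 4 largest were Rgs16 (1.46, adjusted p = 0.0114) and Rgs4 (0.85, adjusted p = 0.0448), which shut off G protein signals, Plcb2 (1.26, adjusted p = 0.0109), a phospholipase C, and Arrb2 (1.05, adjusted p = 0.0017), an arrestin. Plcb2, Arrb2 and Rgs4 were called in none of the single classes tested, and Rgs16 in fibroblasts and in capillary and venous endothelium. Macrophages were 1.49% of Sham and 5.37% of DOCA-salt cells and fibroblasts 0.136% and 2.86%. The part of these shares in the whole-kidney values was not tested. In endothelial cells 26 were tested and 1 rose, Gna12 (0.65, adjusted p = 0.0152), where 9.16% of all genes were called, with a median of 0.04 where that of all genes was −0.03.

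Of 11 genes known to act on Edn1 transcription, 2 fell over the whole kidney, Nr3c2, the mineralocorticoid receptor (log2 change −0.67, adjusted p = 0.0120), and the clock gene Per1 (−0.64, adjusted p = 0.0056), with a list median of −0.04, a count close to the 17.1% of all genes called. In endothelial cells Nr3c2 fell by 1.06 (adjusted p = 0.000688), Klf4 by 0.57 (adjusted p = 0.0499) and Per1 by 0.49 (adjusted p = 0.0313), and Hif1a, the hypoxia factor, rose by 0.71 (adjusted p = 0.00465), 4 of the 11 tested where 9.16% of all genes were called. Of these, Nr3c2 and Hif1a were also called in capillary and venous endothelium, and Klf4 and Per1 in none of the subclasses, whose shares of the endothelium differed between the groups. In the distal convoluted tubule, where the called rise of Edn1 was largest, 10 were tested and the lowest adjusted p was that of Jun (log2 change 0.59, adjusted p = 0.0575). Fos, its partner in AP-1, had a log2 change of 0.30 there (adjusted p = 0.411). In connecting tubule, where Edn1 was not called, 8 of the 11 were, where 24.9% of genes were, 2 higher and 6 lower, the latter including Fos (−1.04, adjusted p = 0.00146) and Jun (−0.60, adjusted p = 0.0101).

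Of 7 genes of the nitric oxide and prostacyclin arm, which ETB is known to engage, 4 rose and 1 fell over the whole kidney, where 17.1% of all genes were called, with a median of 1.10. They were Gucy1a1 (log2 change 2.36) and Gucy1b1 (1.10), the subunits of the nitric oxide receptor, Nos2 (2.06), Ptgis (1.63) and, as the gene that fell, Nos1 (−2.25). Gucy1a1 and Ptgis were also called higher within fibroblasts, which were 0.136% of Sham and 2.86% of DOCA-salt cells, and the part of this share in the whole-kidney values was not tested. In endothelial cells 4 were tested and 1 was called, the endothelial synthase Nos3, which fell by 0.79 (adjusted p = 0.0286), where 9.16% of all genes were called. Nos3 was called in none of the endothelial subclasses, with a log2 change of 0.12 (adjusted p = 0.755) in capillary and venous cells. Of the 17 dissociation genes, 1 rose over the whole kidney, Socs3 (0.65), and in endothelial cells Hsph1 rose by 0.87 and Egr1 fell by 0.85.

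The genes most like each member were sought over 103 sums of mouse and cell class, by Pearson's r of log2(CPM + 1) among 14658 genes. They are a description, since the sums share libraries. For Edn1 they were Samd12 (r = 0.79), Cmtm8 (0.78) and Sh3bp4 (0.73), and for Edn3 Gm56664 (0.82), Slc26a7 (0.80) and Pgm5 (0.79). For Ednra they included Lrrc17 and Ndufa4l2 (each 0.92), for Ednrb Cav1 (0.83), Gjc1 (0.79) and Kitl (0.78), and for Ece1 Rtl8a (0.70), Lgals3bp (0.70) and Bag5 (0.69). Cav1, which encodes a protein of membrane pits, fell with Ednrb in connecting tubule (log2 change −1.66, adjusted p = 3.3e-06) and in principal cells (−0.61, adjusted p = 0.0266), and was also called lower in intercalated cells, where Ednrb fell, and in fibroblasts, where Ednrb was not tested, but rose in capillary and venous endothelium (0.80, adjusted p = 0.00271), where Ednrb fell.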

How the data were processed

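Raw UMI counts per gene and barcode were deposited by the authors, made with Cell Ranger (9.0.0 in the submitters' processing notes, 8.0.1 in the file headers) on GRCm39. No correction for free RNA was applied. As in the study, barcodes were kept from 170 genes and 500 UMIs upwards and up to 50% mitochondrial and 5% hemoglobin UMIs. In place of the DoubletFinder step of the study, the top Scrublet scores (scanpy 1.11.5) were removed at 0.8% per 1000 barcodes. Cells were clustered on 2000 variable genes and 30 principal components (15 neighbors, leidenalg 0.10.2, resolution 1), with endothelin and pathway genes barred and without the Harmony integration of the study, and named from marker lists, so classes may differ from those of the study and clusters may split by mouse or group. Counts were summed per mouse and class (at least 10 cells) and tested with edgeR 4.0.16 (filterByExpr, TMM, quasi-likelihood F test) in R 4.3.3; p-values were adjusted by Benjamini-Hochberg over every gene tested. SEs were log2 change divided by the root of F. Of the steps, only the edgeR fit was tested on simulated sums, for whole kidney, endothelial cells and distal convoluted tubule. It recovered 68.5%, 76.7% and 68.1% of the 2-fold changes put in, and called 8, 8 and 10 unchanged genes. CPM was computed from the sum's total UMIs. It is not scaled by transcript length, so levels were compared within a gene only. The edgeR p-values set the difference between the groups against the spread between these mice, which edgeR moderates with that of the other genes. DESeq2 1.42.0 and other settings were alternatives. The split into shares and levels used shares of UMIs and pooled counts.

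The named genes were the 5 members, Edn2, at most 4 called genes of each pathway list with the largest log2 change in whole kidney and endothelium, and the 3 genes most correlated with each member. Of these, 1 gene is not reported here. Members and lists were chosen with earlier results of these data known. Genes named outside this rule, such as cluster markers, Gucy1b1, Furin, Jun, Fos and Cav1 by class, were chosen after their values were seen.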

Additional observations from a re-analysis of the deposited data

Results flagged for a closer look

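The changes of Edn1 and Ednrb differed between cell classes in 3 pairs of classes, of which all but the endothelial and tubular pair were chosen after their values were seen. Between endothelial and tubular cells, the difference of the log2 changes (DOCA-salt against Sham mice, edgeR interaction term) was −1.04 for Edn1 (SE 0.16, adjusted p = 5.05e-04) and 1.47 for Ednrb (SE 0.18, adjusted p = 4.86e-05). Between capillary and venous and arterial endothelium it was 1.10 for Edn1 (SE 0.23, adjusted p = 0.00394) and −0.92 for Ednrb (SE 0.22, adjusted p = 0.0149). The capillary and arterial calls were lost without Sham 2 for Edn1 (adjusted p = 0.0621), and for Ednrb without Sham 1 (0.0544), Sham 2 (0.106), DOCA-salt 2 (0.0507) or DOCA-salt 3 (0.114). Between distal convoluted tubule and principal cells it was 3.98 for Edn1 (SE 0.46, adjusted p = 1.54e-07) and 2.71 for Ednrb (SE 0.58, adjusted p = 0.00178). Ednrb in the distal convoluted tubule did not pass the filter on low counts for a test of that class alone and rests on 6 Sham and 42 DOCA-salt UMIs. The cause of none of these differences was tested.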

How the results depend on the processing

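Calls of Edn1 in capillary and venous endothelium, distal convoluted tubule and macrophages, and of Ednrb in connecting tubule, held under every alternative in which they were tested, with highest adjusted p of 0.0335, 0.0173, 0.0206 and 0.000124. Edn1 could not be tested in the shared cluster of capillary and venous endothelium or of macrophages, nor in macrophages at resolution 2. Its calls there therefore say nothing about those settings. The sums of one shared cluster and the differences between pairs of subclasses were chosen after seeing the data. The sample labels do not say that same-numbered mice were paired. Their deviations from the group mean had correlations of −0.0944, −0.790 and −0.290 over 5000 genes. Such deviations are centred within each group, so they cannot decide whether same-numbered mice shared a batch. Replicate 3 had the lowest median UMIs a cell (4787 in Sham, 5891 in DOCA-salt) and the highest median mitochondrial share (25.7% and 19.6%) in both groups. A shared batch was not tested otherwise. The replicate block moved the members called from 2 to 1 over the whole kidney (Ednrb adjusted p = 0.0713), from 1 to 0 in endothelial cells (Edn1, 0.0839) and from 1 to 0 in intercalated cells (Ednrb, 0.127), and changed no other call of a member. DESeq2 called 0 in glomerular endothelium and 1 in the proximal tubule. Without a filter on low counts 2 were called in endothelial cells, 1 in fibroblasts and 1 in the proximal tubule. At most 20% mitochondrial UMIs gave 1 in the proximal tubule and 0 in intercalated cells. Without doublet removal 1 was called in capillary and venous endothelium (Ednrb, 0.0614) and 1 in principal cells. Resolution 2 gave 2 in endothelial cells and 0 in glomerular endothelium (Edn1, 0.115), intercalated cells (Ednrb, 0.105) and macrophages. The shared cluster gave 0 in capillary and venous endothelium, and the whole kidney without fibroblasts 1.

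Without 1 mouse in turn, the members called were 1 to 3 over the whole kidney, 0 to 3 in endothelial cells, 0 to 1 in glomerular endothelium, 1 to 2 in capillary and venous endothelium, 0 to 2 in the proximal tubule, 0 to 2 in principal cells, 0 to 1 in intercalated cells and 0 to 2 for the capillary and arterial difference. A lone sample left in a group was assumed to vary like the others.

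Directions turned for Ednra over the whole kidney without fibroblasts (−0.15) and Ednrb without endothelial cells (−0.21), and otherwise for changes that were not called. Ece1 was −0.21 with the replicate block, −0.0272 without doublet removal and −0.20 at resolution 2 in glomerular endothelium, −0.41 in the shared capillary cluster, −1.07 without doublet removal in fibroblasts (Edn1 −1.99), 0.0128 with total UMIs in distal convoluted tubule, and 0.0489 with total UMIs and 0.0476 without a filter in macrophages. Edn3 in intercalated cells was −0.0023 at 20% mitochondrial UMIs. Unthinned, the DOCA-salt share of cells with a UMI was higher by 1.97 points for Edn1 in arterial endothelium, 4.52 for Ednra in smooth muscle cells and pericytes, 4.68 for Ednrb in capillary and venous and 9.497 in all endothelial cells. Without 1 mouse, ranges crossed 0 for Ednrb (−1.82 to 0.21) and Ece1 (−0.25 to 0.32) in glomerular endothelium, Ednrb (−0.29 to 0.16) and Ece1 (−0.53 to 0.0701) in smooth muscle cells and pericytes, Edn3 (−0.52 to 0.26) and Ece1 (−0.0761 to 0.50) in the proximal tubule, Edn1 in the thick ascending limb (−0.18 to 0.37) and connecting tubule (−0.0827 to 0.64), Ece1 in distal convoluted tubule (−0.28 to 0.0499) and macrophages (−0.33 to 0.32), and Edn3 between endothelial and tubular cells (−1.01 to 0.13). Scaling by total UMIs moved the median of all genes over the whole kidney from −0.02 to 0.09, in distal convoluted tubule to 0.14, connecting tubule to 0.18 and macrophages to 0.12, and the genes called higher and lower over the whole kidney from 2271 and 1097 to 2841 and 644. The cause of these shifts was not tested.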

Other observations

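Further cells carried Edn1 without entering a test. The unnamed cluster led by C3, Ptgds and Havcr1, the last a known marker of injured tubule, held 105 Sham and 1014 DOCA-salt cells and gave 0.935% and 8.68% of all Edn1 UMIs. Its Edn1 level was 10.7, 14.98 and 21.2 CPM in Sham and 16.4, 18.01 and 18.6 in DOCA-salt mice, which overlapped. In the cluster led by Ncam1, Wt1 and Akap12, Edn1 was 15.7, 15.7 and 19.2 against 50.3, 32.9 and 36.3, with every DOCA-salt mouse above the Sham mice. Such separation of 3 against 3 mice by itself gives an exact two-sided permutation p of 0.1.

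The endothelial cluster led by Selp, an adhesion molecule of activated and venous endothelium, had no subclass and held 44 Sham and 169 DOCA-salt cells. Edn1 there was 0 in the 2 Sham mice with 10 cells and 27.4, 75.8 and 104 CPM in DOCA-salt mice. In dendritic cells, where Ece1 stood highest outside the endothelium, the cluster led by Cd209a had 10.1, 28.2 and 32.2 CPM of Ece1 in Sham and 85.3, 44.2 and 63.9 in DOCA-salt mice. The cluster led by Xcr1, which marks cross-presenting cells, had 234 and 134 against 177, 151 and 214. The groups overlapped in the latter and not in the former, and neither was tested.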
